A study of Homo sapiens with 4 samples.

Results

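The translation initiation factors were followed in melanoma cells given a medium-chain fatty acid. They are the genes whose products bring the ribosome to an mRNA and set it at the start codon. The members were taken by name: symbols beginning EIF1 to EIF6, without the kinases EIF2AK1 to EIF2AK4, without EIF2S1, and without symbols ending in P and digits or in AS and digits after a hyphen. Of 70 such symbols, 51 passed this rule and 44 also had a mean of at least 100 normalised counts over the 4 libraries, out of 56832 genes in the table. They comprised 4 genes of the EIF1 family, 4 of EIF2, 5 of EIF2B, 14 of EIF3, 11 of EIF4 and 6 named EIF5 or EIF6. Just above the floor stood EIF3CL with a mean of 276 and EIF5AL1 with 281, and just below it EIF2S3L with 75.3 and EIF4E3 with 44.2. The 4E-binding proteins EIF4EBP1 and EIF4EBP2 end in P and a digit, so they are described with the regulators.

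RNA was sequenced from A375, an established human melanoma line labelled as wild type, which is the only line in the study. Cells were grown in DMEM with serum and received octanoate at 1 mM, or isopropanol as the vehicle, for 48 h, with 2 libraries for each. The stated aim was to find genes and signatures that rise. Nothing in the labels says whether replicates were separate cultures, so p-values measure only the spread between these libraries. The libraries held 67785956 to 78005035 recovered reads, and the members took 1.15 to 1.18% of them. Of the lineage markers, SOX10 stood at 34072 to 41363 normalised counts and CSPG4 at 42355 to 60680, while the pigment genes PMEL (65.8 to 98.2), MLANA (34.9 to 52.0), DCT (10.6 to 30.0) and TYR (1.93 to 3.93) were low. Melanoma markers differed between the groups by value, in both directions. MITF stood at 3533 and 3330 normalised counts with vehicle and 2414 and 2511 with octanoate, and S100B at 4234 and 3741 against 1917 and 1746. DCT and TYR were also lower in both octanoate libraries, at low counts. Higher with octanoate were AXL (23437 and 22061 against 30450 and 30298), CSPG4 (46074 and 42355 against 60680 and 57184) and PMEL (65.8 and 65.9 against 98.2 and 95.4). SOX9 lay between 67.7 and 88.9. Of markers of other cell types, the blood genes PTPRC, CD3E and CD68 stood between 1.08 and 10.8 and the epithelial EPCAM between 29.1 and 31.8. The epithelial KRT5 was lower with octanoate at low counts (12.8 and 7.75 against 2.89 and 3.25), and CDH1 lay between 6.74 and 15.2. The endothelial PECAM1 was higher with octanoate by value (121 and 122 against 249 and 221), the fibroblast gene COL1A1 lower (394 and 393 against 228 and 259), and LUM lay between 507 and 547 in all libraries. The endothelial VWF was also higher (65.8 and 63.9 against 89.5 and 95.4) and the fibroblast gene DCN lower (148 and 161 against 114 and 131). The part of these markers in the members' differences was not tested. In bulk RNA, fewer cells of a type and less RNA per cell cannot be told apart.

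Initiation begins when eIF2, bound to GTP, carries the initiator methionyl-tRNA to the small ribosomal subunit, helped by eIF1, eIF1A, eIF5 and the large scaffold eIF3. The cap-binding complex eIF4F, made of eIF4E, the scaffold eIF4G and the helicase eIF4A, brings in the mRNA, and the ribosome then scans to the start codon. eIF5 triggers GTP hydrolysis there, eIF5B joins the large subunit, and eIF2B reloads eIF2 with GTP, the step that the integrated stress response blocks. The pathway is studied in melanoma because eIF4F takes up signals from the BRAF and mTOR kinases.

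Differences between octanoate and vehicle were small and went both ways. EIF1 and its paralog EIF1B, which guard start codon choice, were higher after octanoate, as were EIF2A and EIF3D. EIF4G1, the main scaffold of the cap-binding complex, was lower, with EIF4A3, the eIF2B subunits EIF2B1 and EIF2B4, EIF3J and EIF3CL. Without vehicle 1, the log2 differences of EIF2B4 and EIF3CL shrank to -0.09 and -0.00. The authors' deposited table calls neither. A gene was called when limma's two-sided test on log2(normalised count + 1) gave a Benjamini-Hochberg adjusted p under 0.05 over all 20250 tested genes. This called 10 of the 44 members (22.7%), 4 higher and 6 lower. Of all tested genes 29.9% were called, 16.2% higher and 13.7% lower, and of the 13482 tested genes that also passed the members' floor of 100, 38.3% were called, 20.4% higher and 17.9% lower. The members' share was not set against these by a test. With libraries rescaled by TMM factors, 5 members were called higher and 4 lower.

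The median log2 difference of the members, octanoate minus vehicle, was -0.05, beside 0.01 over all tested genes and -0.02 over the 9003 with a mean of 1000 or more, a level that 40 of the 44 members reach. By value 14 members lay above 0 and 30 below (68.2% below), beside 55.0% below 0 among those 9003 genes. With TMM scaling 16 lay above 0 and 28 below. Without vehicle 1 the counts were 21 above and 23 below, nearly even. The median size of the difference, without its sign, was 0.10 for the members, 0.13 for tested genes with a mean of 1000 or more and 0.15 for those passing 100. Both octanoate libraries lay on the same side of both vehicle libraries for 28 members (63.6%), 10 higher and 18 lower, beside 63.1% of all tested genes and 69.5% of those with a mean of at least 100. With 2 libraries on each side the smallest two-sided p of an exact permutation test is 0.333, so the calls rest on limma, which shares variance between genes. The standard error was 0.06 for the median member, and the smallest difference called was 0.15, of EIF3J. For the 34 members not called, the 95% intervals of the difference ran from -0.29 (EIF5AL1) to 0.29 (EIF2B3).

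**Figure D1:**
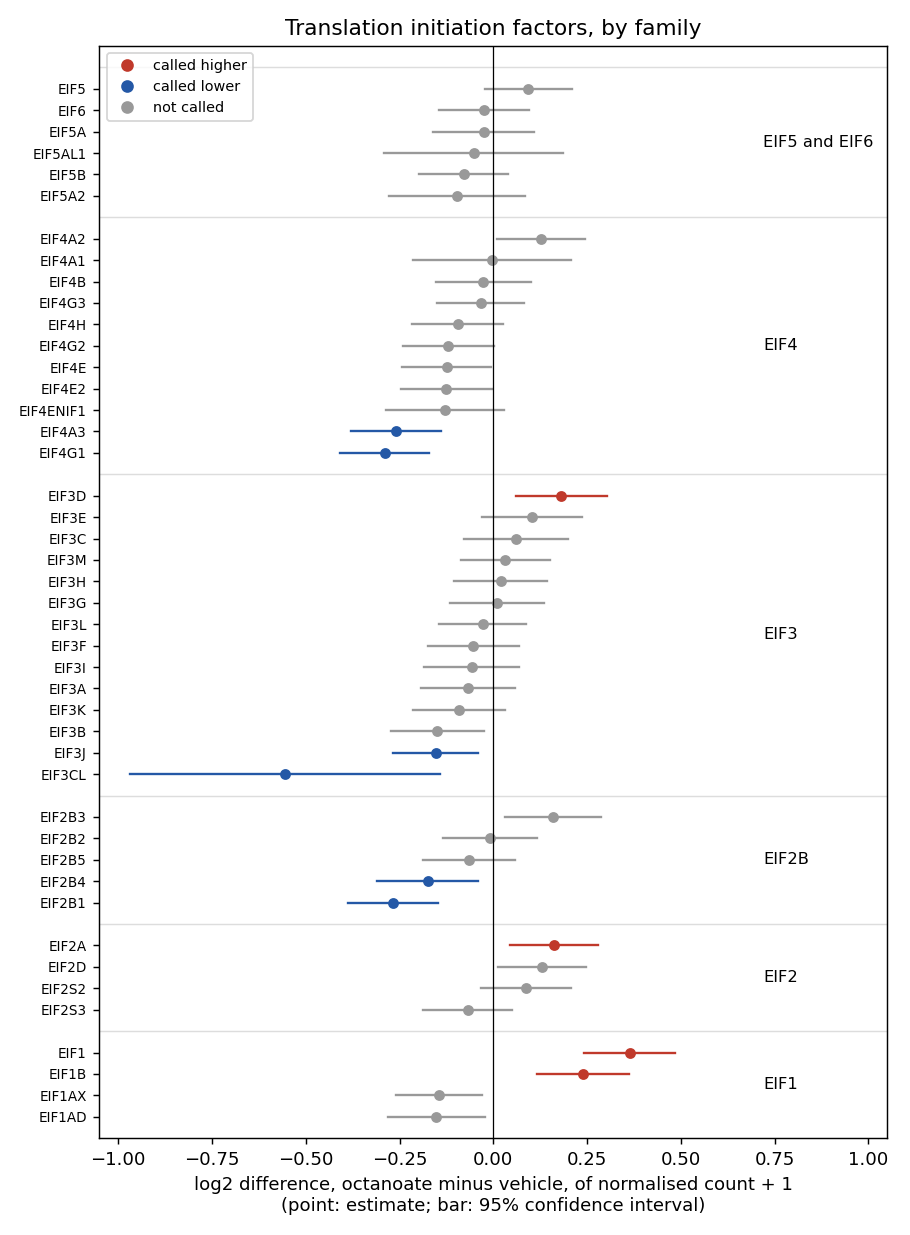
Log2 difference of normalised count + 1, octanoate minus vehicle, on the horizontal axis for each of the 44 members, grouped by family on the vertical axis; points are estimates, bars are 95% confidence intervals and colour shows the call. Called genes of the EIF1 and EIF2 families lie to the right of 0 and those of EIF2B and EIF4 to the left, while 11 of 14 EIF3 genes are not called.

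The EIF1 family holds the small proteins that keep the scanning ribosome open until the start codon is found. EIF1 (chr17:41688885-41692668, plus strand, GENCODE 29 on GRCh38) had 36535 and 34535 normalised counts in vehicle 1 and 2, and 46050.1 and 45351 in octanoate 1 and 2. Both octanoate libraries stood well above both vehicle libraries, which differed from each other far less. The log2 difference was 0.36 (SE 0.06, limma adjusted p = 3.73e-05, n = 2 per group), a rise of 28.6%. EIF1B (chr3:40309684-40312424, plus strand), a near copy of EIF1 encoded by another gene, had 3758 and 3688 with vehicle and 4446 and 4344 with octanoate. The groups did not overlap here either, and the rise was 18.0% (log2 0.24, SE 0.06, limma adjusted p = 0.00321). Both genes were still called when any single library was left out; each such fit sets 1 library against 2, and the lone library is assumed to vary like the pair of the other group. No exon base of EIF1 overlaps another gene, and 0.785% of those of EIF1B overlap EIF1B-AS1 on the other strand. EIF1 does share stretches with copies elsewhere, the longest of 305 bases at 95.1% identity with EIF1P3.

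EIF1AX, which encodes eIF1A, the partner of eIF1 on the small subunit, went the other way by values without being called. It stood at 17688 and 17399 with vehicle and at 15749 and 15995 with octanoate (log2 difference -0.14, limma adjusted p = 0.0516). The authors' deposited table gives EIF1AX an adjusted p of 0.0295, a call. EIF1AX shares 435 bases at 99.5% identity with the copy EIF1AXP1, so its count is uncertain. EIF1AD, a gene for a protein with an eIF1A-like domain, stood at 2698 and 2619 against 2409 and 2376 (log2 difference -0.15, limma adjusted p = 0.0713). All 4 genes of this family had groups that did not overlap, a pair higher and a pair lower. The same held for 63.1% of all tested genes and 69.5% of those with a mean of at least 100. The ratio of EIF1 to EIF1AX in normalised counts was 2.07 and 1.98 with vehicle and 2.92 and 2.84 with octanoate. The level itself of such a ratio depends on transcript length, but its change between libraries does not. As EIF1 and EIF1AX had opposite signs, the shift of their ratio follows from their own values and is no further evidence.

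The EIF2 genes measured here are those for the beta and gamma subunits of eIF2 and for a pair of proteins that can deliver tRNA to the ribosome without eIF2. EIF2A, one of that pair, had 17367 and 16908 normalised counts with vehicle and 19707 and 18652 with octanoate. The groups were apart, and the gene was called higher by 11.9% (log2 difference 0.16, SE 0.06, limma adjusted p = 0.0334). The call was lost when any 1 library was left out, with an adjusted p of 0.0583 to 0.293 in limma. EIF2D, the other, stood at 7194 and 6950.4 against 7757 and 7718, a log2 difference of 0.13 (limma adjusted p = 0.0865). EIF2S2, for the tRNA-supporting beta subunit, had a log2 difference of 0.09 (adjusted p = 0.276) and EIF2S3, for the GTP-binding gamma subunit, one of -0.07 (adjusted p = 0.401), both by limma. Neither subunit gene was called. EIF2S2 and EIF2S3 share stretches of up to 1002 and 1587 bases with copies elsewhere, so their counts are uncertain.

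eIF2B is the exchange factor that returns eIF2 to its GTP-bound form; its gamma and epsilon subunits (EIF2B3, EIF2B5) catalyse the exchange, and alpha, beta and delta (EIF2B1, EIF2B2, EIF2B4) sense phosphorylated eIF2. EIF2B1 (chr12:123620406-123633766, minus strand) had 13331 and 12409 normalised counts with vehicle and 10529 and 10848 with octanoate. The octanoate libraries lay clearly below, and EIF2B1 fell by 16.9% (log2 difference -0.27, SE 0.06, limma adjusted p = 0.000942), and it was still called in the fits with 1 library left out. Of its exon bases 15.6% overlap DDX55 or GTF2H3 on the opposite strand, and whether counting used strand is not given in the sources used here. EIF2B4 (chr2:27364352-27370486, minus strand) had 3448 and 3071 with vehicle and 2919 and 2845 with octanoate. Here vehicle 1 stood apart and vehicle 2 lay nearer to the octanoate libraries than to vehicle 1. The fall was 11.6% (log2 difference -0.18, SE 0.07, limma adjusted p = 0.0465), but without vehicle 1 it was -0.09 on the log2 scale (adjusted p = 0.445), and the call was also lost without octanoate 1 or octanoate 2. The authors' deposited table has an adjusted p of 0.0866 for EIF2B4.

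The other 3 subunit genes of eIF2B were not called. EIF2B3 stood at 3817 and 3497 with vehicle and 4103 and 4059 with octanoate, a log2 difference of 0.16 (limma adjusted p = 0.0544), opposite in sign to EIF2B1. EIF2B2 showed -0.01 (95% interval -0.13 to 0.12) and EIF2B5 -0.06 (-0.19 to 0.06). Of the exon bases of EIF2B2, 23.6% overlap genes on the opposite strand. The called and uncalled subunit genes thus had values on both sides of 0. The ratio of EIF2B1 to EIF2B3 in normalised counts was 3.49 and 3.55 with vehicle and 2.57 and 2.67 with octanoate. This shift follows from the opposite signs of the pair and is no further evidence.

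eIF3 is the largest initiation factor, a ring of subunits on the back of the small subunit that holds the mRNA and other factors in place. Of its 14 genes, 1 was called higher and 2 lower. The share called was 21.4%, beside 29.9% of all tested genes and 38.3% of those with a mean of at least 100. The median log2 difference was -0.04. The groups overlapped for 9 genes and were apart for 35.7%, beside 63.1% of all tested genes and 69.5% at a mean of at least 100. EIF3D, whose product can itself bind the cap of selected mRNAs, had 18242 and 16703 normalised counts with vehicle and 19998 and 19601 with octanoate. Both octanoate libraries were higher, by 13.3% on average (log2 difference 0.18, SE 0.06, limma adjusted p = 0.0209). The call held without vehicle 1 and was lost without vehicle 2 (0.12, adjusted p = 0.217), octanoate 1 (adjusted p = 0.123) or octanoate 2 (adjusted p = 0.0677). EIF3J, a loosely attached subunit near the mRNA channel, had 12956 and 12950.4 with vehicle and 11695 and 11594 with octanoate. The replicates were almost equal within each group, and the gene fell by 10.1% (log2 difference -0.15, SE 0.06, limma adjusted p = 0.0377), yet without any 1 library limma no longer called it (adjusted p 0.107 to 0.190).

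The third called gene of this family, EIF3CL, is a near copy of EIF3C, with which it shares 3085 bases at 99.9% identity, so reads cannot be assigned between them with confidence. EIF3CL had 462 normalised counts in vehicle 1, 214 in vehicle 2, and 211 and 217 in the octanoate libraries. Vehicle 1 alone was high, and vehicle 2 lay between the octanoate libraries. The log2 difference of -0.56 (SE 0.20, limma adjusted p = 0.0379) became -0.00 (adjusted p = 0.995) without vehicle 1 and -1.11 without vehicle 2. EIF3C itself stood at 2842 and 2514 against 2797 and 2777 and was not called. The authors' deposited table gives EIF3CL an adjusted p of 0.427. Without EIF3CL the family had 1 call each way among 13 genes.

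The remaining eIF3 genes were not called. EIF3B, for a core subunit, stood at 32696 and 29652 with vehicle and 28502 and 27673 with octanoate (log2 difference -0.15, limma adjusted p = 0.0658); the authors' deposited table puts its adjusted p at 0.04997, just under the threshold. EIF3E, whose product links the ring to eIF4G, had 40583 and 40474 with vehicle, but 46632 in octanoate 1 and 40648 in octanoate 2. Of the octanoate libraries 1 was clearly higher and the other level with the vehicle libraries (log2 difference 0.10, limma adjusted p = 0.245). The other 8, EIF3A, EIF3F, EIF3G, EIF3H, EIF3I, EIF3K, EIF3L and EIF3M, had log2 differences between -0.09 (EIF3K) and 0.03 (EIF3M). EIF3F shares 1086 bases at 97.5% identity with the copy EIF3FP3, so its count is uncertain.

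Levels can be compared between genes only per length, and were taken as normalised counts per kilobase of the median protein-coding transcript in GENCODE 29, as the mean of the 4 libraries. On this scale EIF3E (29358) and EIF3I (25016) led, followed by EIF3K (19493), EIF3G (16214) and EIF3H (14401). EIF3A, EIF3B, EIF3F, EIF3D, EIF3L, EIF3M and EIF3J lay between 10968 and 7935. Neighbours among these 7 lie close, so their order is not firm. The order of the leading genes is not firm either, since it depends on the length used. The median coding transcript has 1433.5 bases for EIF3E, 780 for EIF3K and 2041 for EIF3H, and the longest transcript 1990, 1327 and 3959. For EIF3I both are 1458 bases. In EIF3L, 41.1% of exon bases overlap AL022311.1 on the same strand, so its count is uncertain. EIF3C, a core subunit gene, stood at 874 and EIF3CL at 89.9, far below the rest. The shared sequence of the pair is the measured fact beside this gap, and its part in it was not tested.

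**Figure D2:**
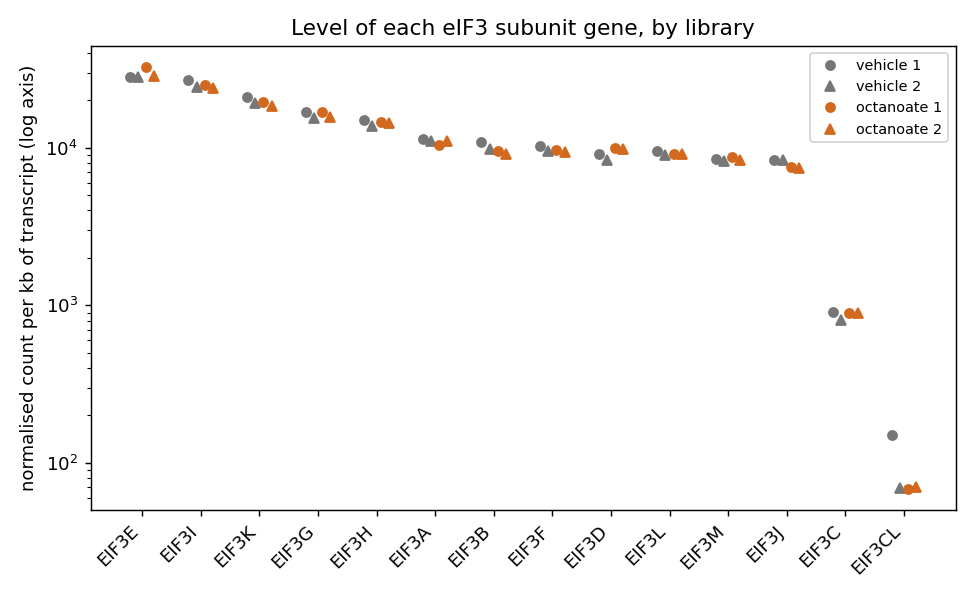
Normalised count per kilobase of transcript (vertical log axis) of each of the 14 EIF3 genes, with 1 point per library (grey vehicle, orange octanoate). Of these genes 12 lie between 7480 and 32530.4 in every library, EIF3C lies near 874, and for EIF3CL vehicle 1 (151) is apart from the other 3 libraries (68.7 to 70.6).

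The EIF4 family binds the cap and unwinds the leader of the mRNA. Its median log2 difference was -0.12, with 10 of 11 members below 0 (9 with TMM scaling). Of tested genes with a mean of 1000 or more, 55.0% lay below 0. Only 2 EIF4 genes were called, both lower. This share of 18.2% stands beside 29.9% of all tested genes and 38.3% of those with a mean of at least 100. EIF4G1 (chr3:184314495-184335358, plus strand), the scaffold joining eIF4E, eIF4A and the ribosome, had 40232 and 38842 normalised counts with vehicle and 32639 and 32035 with octanoate. The groups were far apart relative to their own spread. EIF4G1 fell by 18.2% (log2 difference -0.29, SE 0.06, limma adjusted p = 0.000415) and was still called in the fits with 1 library left out. EIF4A3 (chr17:80135214-80147183, minus strand), the helicase of the exon junction complex rather than of eIF4F, had 8551 and 7914 with vehicle and 6883 and 6865 with octanoate. Both octanoate libraries were lower, and EIF4A3 fell by 16.5% (log2 difference -0.26, SE 0.06, limma adjusted p = 0.00142), also called in those fits. Neither gene has exon bases that overlap another gene in GENCODE 29.

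The other scaffold genes were not called. EIF4G2, which lacks the eIF4E-binding part, stood at 55334 and 55384 with vehicle and 50173 and 51739 with octanoate (log2 difference -0.12, limma adjusted p = 0.133), and EIF4G3, the closest relative of EIF4G1, showed -0.03 (95% interval -0.15 to 0.08). The ratio of EIF4G1 to EIF4G3 was 2.46 and 2.42 with vehicle and 2.12 and 1.97 with octanoate. The ratio of EIF4G1 to EIF4G2 was 0.727 and 0.701 against 0.651 and 0.619. In both ratios the octanoate libraries lay below both vehicle libraries. The differences between these genes were not tested as such.

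Of the cap-binding proteins, EIF4E stood at 6834 and 6668 with vehicle and 6292 and 6094 with octanoate (log2 difference -0.12, limma adjusted p = 0.105). EIF4E2, a cap-binding protein that represses translation, and EIF4ENIF1, which carries eIF4E into the nucleus, had log2 differences of -0.12 (adjusted p = 0.112) and -0.13 (adjusted p = 0.221) by limma. All 3 had both octanoate libraries below both vehicle libraries, and none was called. Groups that did not overlap, in either direction, were found for 63.1% of all tested genes and 69.5% of those with a mean of at least 100. EIF4E shares 654 bases at 99.4% identity with the copy EIF4EP2. Of the exon bases of EIF4E2, 24.2% overlap genes on the opposite strand. The counts of EIF4E and EIF4E2 are therefore uncertain. Of the helicases, EIF4A2 lay higher by value: 23380.4 and 22210 with vehicle, 24863 and 24892 with octanoate (log2 difference 0.13, limma adjusted p = 0.0979). EIF4A2 to EIF4A3 was 2.73 and 2.81 with vehicle and 3.61 and 3.63 with octanoate, a shift that follows from their opposite signs. The helicase cofactors EIF4B and EIF4H had log2 differences of -0.03 and -0.10, not called. Both share stretches with copies elsewhere, of up to 1856 and 687 bases, so their counts are uncertain. EIF4A1, usually the main eIF4A gene, was listed at only 376 to 412 normalised counts in the 4 libraries, with a log2 difference of -0.00 (95% interval -0.21 to 0.21). In GENCODE 29, 48.6% of its exon bases overlap other genes on the same strand, among them the read-through gene SENP3-EIF4A1, with which it shares 1466 bases at 100% identity, so this count is uncertain and the order of EIF4A1 and EIF4A2 is not read from it.

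The genes for late factors were not called. EIF5, the activator of GTP hydrolysis by eIF2, stood at 20559 and 20443 with vehicle and 21678 and 22077 with octanoate (log2 difference 0.09, limma adjusted p = 0.219). EIF5B, the subunit-joining GTPase, showed -0.08, EIF6, which keeps the subunits from joining too soon, -0.03, and EIF5A, the hypusine-carrying factor that also serves elongation, -0.03. Its relatives EIF5A2 and EIF5AL1 showed -0.10 and -0.05. EIF5A and EIF5AL1 share 1159 bases at 97.4% identity. None of these 6 genes had an unadjusted p under 0.05 by limma, and edgeR and DESeq2 on recovered reads also called 0. Limma called 29.9% of all tested genes and 38.3% of those with a mean of at least 100. EIF5 was called in 1 of 16 alternatives, the fit with the replicate number as a block. EIF1 and EIF5 bind overlapping partners and oppose each other at start codon recognition; the ratio of EIF1 to EIF5 was 1.78 and 1.69 with vehicle and 2.12 and 2.05 with octanoate.

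**Figure D3:**
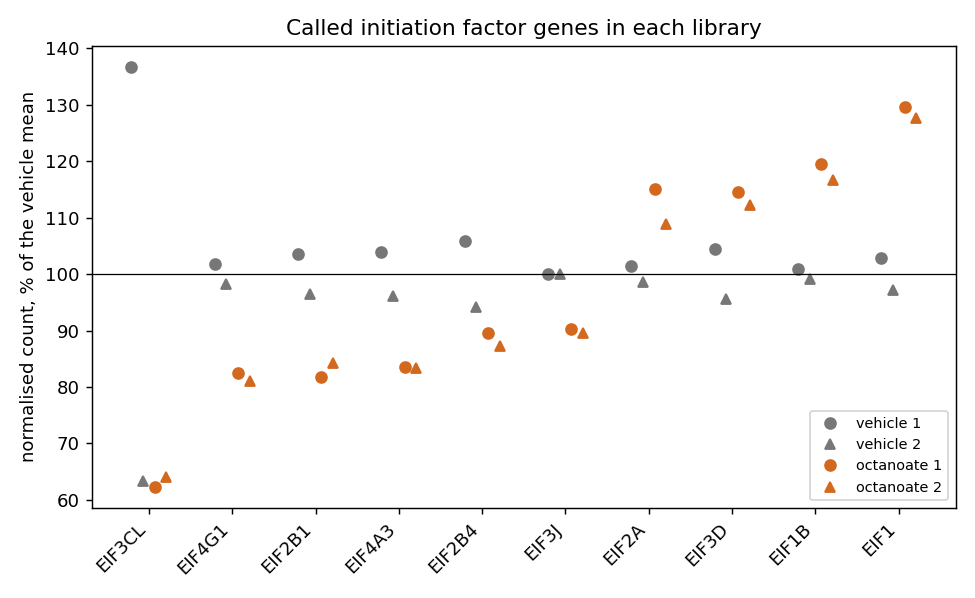
Normalised count of the 10 called members in each library, as a percentage of the mean of the 2 vehicle libraries (vertical axis), with circles for replicate 1 and triangles for replicate 2. For 9 genes the grey vehicle points and the orange octanoate points do not overlap, and for EIF3CL vehicle 1 alone is high.

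Summed normalised counts describe each family by its abundant genes. The sums use the uncertain counts of EIF4A1 and EIF3C as listed and leave out EIF2S1, so they are not amounts of whole families. The EIF1 sum was 60680.1 and 58241 with vehicle and 68654 and 68065 with octanoate, 15.0% higher on average. The EIF4 sum was 262384 and 251716 against 240191 and 241815, a difference of -6.24%. The EIF2B sum differed by -8.53%, the EIF2 sum by 3.54%, the EIF3 sum by -1.24%, and that of EIF5 and EIF6 by -0.775% (0.256% with TMM scaling, the only family sum whose sign differed between TMM scaling, equal column totals and the deposited scale). The total over all members differed by -1.30%, with 889462 and 845841 against 864778 and 847881, so the groups overlapped in the total.

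Vehicle 1 ran higher than vehicle 2 across the members. This held for 41 of 44 (93.2%), with a median log2 difference between the 2 libraries of 0.08, and for all 14 EIF3 genes, with a median of 0.13. Of tested genes whose mean reached 1000 the share was 77.9% and the median 0.06. The median treatment difference without its sign was 0.06 for EIF3 genes and 0.12 for EIF4 genes, so the gap between the vehicle libraries was of the same order; its part in the calls was read only by leaving libraries out. Without vehicle 1 the members' median was -0.01, and 4 members were called higher and 3 lower. EIF1, EIF1B, EIF2B1, EIF4A3 and EIF4G1 were the 5 called members still called in each of the 4 fits with 1 library left out, in which the shortened group has no replicate of its own.

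The authors' deposited table, made with DESeq2, calls 10 members with the same threshold, 4 higher and 6 lower, of which 8 are also called here. EIF2B4 and EIF3CL are called here only, and EIF1AX and EIF3B in the authors' deposited table only. Among the 33533 genes of the authors' deposited table, 12.9% are called. That share includes genes with a mean below 10, so it is not a background at the members' level. As an alternative, DESeq2 on recovered reads of the 20250 genes with a mean of at least 10 called 4924 genes and 12 of the 44 members. The authors' deposited table gives log2 values of 0.36 for EIF1 and -0.29 for EIF4G1.

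Promoter sequence was taken from RefSeq (GRCh38.p14), which gave an entry for 37 of the 44 members, spanning 250 bases before to 50 bases after a start site. For EIF1B, EIF2B1, EIF4A3 and EIF4G1, GENCODE 29 begins the gene 23, 80, 55 and 111 bases before the RefSeq start, and for EIF1 both begin at the same base. Shown are therefore the bases before the earlier of the 2 starts, 139 for EIF4G1 and 150 for the others, 5′ to 3′ on the gene's strand, for the 5 members still called in each fit with 1 library left out. Capitals mark matches on either strand to CACGTG, the E-box that MYC and MITF-type factors can bind, or CCGGAAG, an ETS-type element. The stretches are chr17:41688735-41688884 (plus) for EIF1, chr3:40309534-40309683 (plus) for EIF1B, chr12:123633767-123633916 (minus) for EIF2B1, chr17:80147184-80147333 (minus) for EIF4A3 and chr3:184314356-184314494 (plus) for EIF4G1.
EIF1: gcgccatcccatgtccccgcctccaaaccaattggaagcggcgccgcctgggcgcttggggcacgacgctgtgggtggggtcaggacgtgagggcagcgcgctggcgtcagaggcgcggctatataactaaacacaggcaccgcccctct
EIF1B: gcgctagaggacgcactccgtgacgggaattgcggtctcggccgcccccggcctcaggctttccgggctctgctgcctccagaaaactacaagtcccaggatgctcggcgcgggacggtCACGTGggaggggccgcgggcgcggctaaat
EIF2B1: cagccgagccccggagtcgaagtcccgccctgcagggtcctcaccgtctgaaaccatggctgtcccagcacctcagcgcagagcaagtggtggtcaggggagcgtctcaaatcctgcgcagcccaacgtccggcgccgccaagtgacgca
EIF4A3: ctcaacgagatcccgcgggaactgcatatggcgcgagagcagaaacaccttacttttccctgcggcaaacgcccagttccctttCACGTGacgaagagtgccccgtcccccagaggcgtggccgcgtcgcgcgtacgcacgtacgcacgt
EIF4G1: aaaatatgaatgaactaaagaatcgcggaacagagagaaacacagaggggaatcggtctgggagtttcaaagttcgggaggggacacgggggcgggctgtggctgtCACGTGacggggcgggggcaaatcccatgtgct
Counted from the RefSeq start, EIF4G1, which fell, holds CACGTG at -144 and -67, EIF4A3, which fell, at -121, and EIF1B, which rose, at -54. The match of EIF4G1 at -67 lies inside the gene as GENCODE 29 draws it and is not in the stretch shown. EIF2B1 holds CCGGAAG at -21 and at 4 bases after the RefSeq start, both also inside its GENCODE gene. No capital stands in the stretches of EIF1 and EIF2B1. CACGTG was found in 10 of 37 member promoters (27.0%), beside 7.26% of all 35116 RefSeq promoters and 10.2% of 9557 promoters of tested genes with a mean of at least 100. By call, it was in 1 of 4 promoters of members called higher, 2 of 5 called lower and 7 of 28 not called. The 7 that were not called are EIF2B3, EIF3F, EIF3K, EIF4B, EIF4E, EIF4H and EIF5A2. CCGGAAG was found in 9 of 37 (24.3%), beside 10.3% of all promoters and 19.4% of those of tested genes at that level. TGATGNAA, the ATF4-type composite element searched on both strands, was in 0 of 37, beside 3.62% and 1.63%. A match describes letters in the window and not a bound site. The 35116 promoters were not reduced to 1 per gene, as the member promoters and the 9557 were. Neither background was matched to the members in level, so these shares do not set membership apart from level.

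Other genes of the translation pathway were taken from 7 lists, of which 62 of 66 genes were tested, with 7 called higher and 9 lower (25.8% called, beside 29.9% of all tested genes and 38.3% of those with a mean of at least 100). In the list on mTORC1 and control of eIF4E, 4 of 17 tested genes were called higher and 1 lower. The share called was 29.4%, beside 29.9% of all tested genes and 38.3% of those with a mean of at least 100. The median log2 difference was 0.01. EIF4EBP2, which holds eIF4E away from eIF4G, had 7676 and 7412 normalised counts with vehicle and 5912 and 6021 with octanoate. Both octanoate libraries lay lower (log2 difference -0.34, SE 0.06, limma adjusted p = 6.22e-05). EIF4EBP1, its better-known relative, stood at 10935 and 9816 against 11923 and 10979 and was not called (0.14, limma adjusted p = 0.0872). SESN2, a stress-induced inhibitor of mTORC1, had 1353 and 1325 with vehicle and 2064 and 1926 with octanoate (log2 difference 0.57, limma adjusted p = 6.2e-07). DDIT4, another inhibitor of mTORC1 induced by stress, had 6876 and 6502 against 9462 and 8685 (0.44, limma adjusted p = 3.88e-06). RHEB, the activator of mTORC1 (log2 difference 0.22), and PDCD4, an inhibitor of eIF4A (0.15), were also called higher; these were chosen for naming after their values were seen.

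Among 14 tested accessory factors, 4 were called lower and 0 higher, with a median log2 difference of -0.09. The share called was 28.6%, beside 29.9% of all tested genes and 38.3% of those with a mean of at least 100. DHX9, an RNA helicase, had 41683 and 41842 normalised counts with vehicle and 33094 and 32773 with octanoate (log2 difference -0.34, limma adjusted p = 5.52e-05). DDX3X, a helicase that helps ribosomes through structured leaders, had 48659 and 49428 against 39354 and 41378 (-0.28, limma adjusted p = 0.000705). The groups lay apart for both helicases. DHX29, which helps scanning (log2 difference -0.21), and ABCF1, which binds eIF2 (-0.16), were also called lower and were chosen for naming after their values were seen. Of 7 genes for poly(A)-binding proteins and their partners, PABPN1 (-0.26, limma adjusted p = 0.00259) and PABPC4 (-0.20, limma adjusted p = 0.00912) were called lower and none higher. The share called in that list was also 28.6%.

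In the steps after initiation, 1 of 8 tested elongation genes was called (12.5%). The share was 29.9% of all tested genes and 38.3% of those with a mean of at least 100. EEF1A2, the tissue-restricted form of the factor that delivers tRNA to the ribosome, had 3023 and 2536 normalised counts with vehicle and 6206 and 5762 with octanoate. Both octanoate libraries stood far above both vehicle libraries (log2 difference 1.11, SE 0.07, limma adjusted p = 1.46e-11), a larger difference than that of any member. EEF1E1, an aminoacyl-tRNA synthetase scaffold protein, was not called (-0.17, limma adjusted p = 0.127). Of only 5 genes for termination and recycling, 60% were called, beside the same 29.9% and 38.3%. PELO, which rescues stalled ribosomes, was called higher (log2 difference 0.31, limma adjusted p = 0.000289). The release factor genes ETF1 (-0.18, limma adjusted p = 0.0206) and GSPT2 (-0.18, limma adjusted p = 0.0484) were called lower. GSPT2 was chosen for naming after its value was seen.

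Hypusine is the modified lysine that makes eIF5A active, built by DHPS and then DOHH. DHPS had 6534 and 6138 normalised counts with vehicle and 8392 and 7904 with octanoate. It was called higher (log2 difference 0.36, SE 0.06, limma adjusted p = 4.06e-05), while DOHH stood at -0.04 (95% interval -0.18 to 0.10) and EIF5A at -0.03. Of 9 tested mitochondrial translation factors limma called 0, with 2 at an unadjusted p under 0.05, and edgeR called 1 and DESeq2 0. The limma share was 29.9% over all tested genes and 38.3% over those with a mean of at least 100. TSFM, for an elongation factor, showed -0.18 (limma adjusted p = 0.0530) and MTIF3, for an initiation factor, 0.16 (limma adjusted p = 0.0802).

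**Figure D4:**
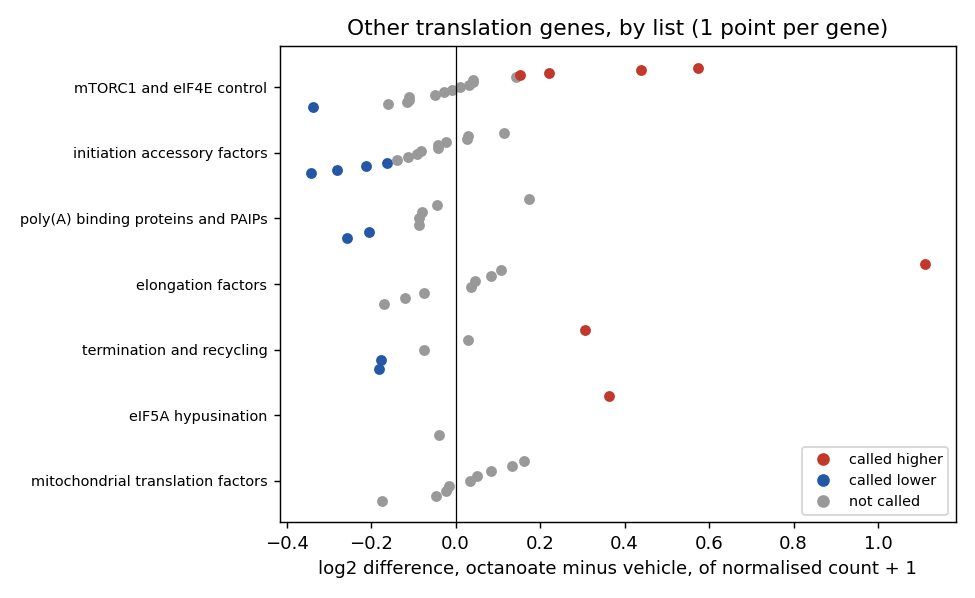
Log2 difference of normalised count + 1, octanoate minus vehicle (horizontal axis), of the 62 tested genes in 7 lists of other translation genes (vertical axis), 1 point per gene, coloured by call. EEF1A2, at 1.11, lies farthest from 0, and no called accessory or poly(A) gene lies to the right of 0.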

How the data were processed

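RNA was sequenced from 4 libraries. The deposited main table gives a signal per gene and library, a count normalised by the authors with DESeq2, per the file headers and names; the submitters' processing notes name bcl2fastq 2.17, Trim Galore, STAR 2.4, Picard, HTSeq 0.9.1 and hg38. The annotation and strand setting are not given in the sources used here. The authors' deposited comparison table gives, per gene, the mean signal, the log2 fold change and its error, the test score and p-values.

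Whole reads were recovered by dividing each library by its step (100% of values whole within 0.001). Genes with a mean of at least 10 (20250) entered a limma fit (version 3.58.1, R 4.3.3) of log2(value + 1), which understates changes of low genes, with an intensity trend and the treatment as the only term. The test was two-sided and p-values were adjusted by Benjamini and Hochberg. The code was tested on simulated data. Overlaps, lengths and GC come from GENCODE 29, shared sequence from blastn 2.17.0 (at least 95% identity over 100 bases), promoters from RefSeq. Not every overlap or shared stretch found is named in the text. The alternatives included edgeR 4.0.16 and DESeq2 1.42.0 on recovered reads. All members may be named; of the pathway lists EIF4EBP1, EIF4EBP2 and the 2 genes per list with the smallest p. Members and lists were chosen with earlier results of these data known.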

Additional observations from a re-analysis of the deposited data

How the results depend on the processing

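The count of called members moved with the variance model, while EIF1, EIF1B and EIF4G1 were called in 15 of 16 alternatives and EIF2B1 and EIF4A3 in 14. No member called here changed the sign of its difference in any alternative. Without the intensity trend 1625 genes and 0 members were called by limma, 0 in every family, although 5 members had an unadjusted p under 0.05, and edgeR called 16 and DESeq2 12; the cause was not tested. With every gene tested and no filter, 2595 genes and 3 members were called (0 in EIF2, EIF2B and EIF3, 1 in EIF4). Rescaling to equal column totals gave 18 members, with 4 in EIF1, 2 in EIF2 and 6 in EIF4. On recovered reads edgeR called 6480 genes and DESeq2 4924; edgeR's 16 members held 4 in EIF1 and 2 in EIF2. With trends on GC content and length removed, 15 members were called, 2 in EIF2 and 4 in EIF4; only 74.8% of tested genes had a GC value, so this check is void over all genes, although all 44 members had one. The same genes without correction, an alternative chosen after seeing the data, gave 12. Leaving out 1 library, which leaves a lone library assumed to vary like the other group, gave 6 to 8 members (0 in EIF2 each time, 1 to 2 in EIF2B, 1 to 2 in EIF3) and a members' median of -0.084 to -0.0078 on the log2 scale, the last without vehicle 1.

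With the replicate number as a replicate block, 8376 genes and 21 members were called (4 in EIF1, 2 in EIF2, 5 in EIF3, 6 in EIF4, 1 in EIF5 and EIF6), all 10 of the main calls among them. The deviations of same-numbered libraries correlated at 0.126 over genes, the labels do not say what the number marks, and there are only 2 pairs, so the libraries were not treated as paired. Members had 200 (EIF3CL) to 65122 (EIF4B) recovered reads per library, and the standard error was largest, 0.20, for EIF3CL.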

Other observations

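SENP3-EIF4A1, the read-through gene that shares sequence with EIF4A1 and falls outside the symbol rule, stood at 15.7 and 17.4 normalised counts with vehicle and at 3.85 and 5.42 with octanoate. Both octanoate libraries were lower (log2 difference -1.65, SE 0.53, limma adjusted p = 0.0199), while EIF4A1 itself had a log2 difference of -0.00. The gene was chosen after its values were seen, its counts are low, and reads in the shared bases cannot be assigned between the pair.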
